A study of Sus scrofa with 28 samples.

Results

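The loci described here are the pig genes of the leptin and adiponectin receptors and of their close relatives: LEPR, LEPROT, LEPROTL1, ADIPOR1 and ADIPOR2. Leptin and adiponectin are hormones released by fat cells. LEPR is the leptin receptor, a class I cytokine receptor that signals through the kinase JAK2 and the transcription factor STAT3. LEPROT, the leptin receptor overlapping transcript, encodes a small endosomal membrane protein that lowers the amount of leptin and growth hormone receptor at the cell surface, and LEPROTL1 encodes its paralog. In humans LEPROT and LEPR share a promoter and their first exons. ADIPOR1 and ADIPOR2 encode membrane-spanning receptors of the PAQR family, through which adiponectin acts in liver on the kinase AMPK and on the fatty acid regulator PPAR-alpha.

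Members were taken from ATAC-seq peak lists, in which a peak marks a stretch of chromatin that a transposase could cut. A peak counted for a gene when its centre lay inside the gene or within 1000 bp of either end, with gene coordinates from RefSeq on the build Sscrofa11.1. This gave 47 of the 84192 listed peaks. They fell to 4 of the 5 genes, with 19 for LEPROT, 19 for ADIPOR1, 8 for ADIPOR2 and 1 for LEPROTL1, and none for LEPR. All 47 lay at a gene end, their centres at most 290.5 bp from it, and no library had more than 1 peak per gene. The genes were chosen by their listing in these same peak lists, by fat group and label, so the number of libraries that list them is a description and carries no test.

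The pigs were all females of the Zlotnicka White breed, labelled day 180 and slaughtered at about 100 kg after equal feeding and housing, and 28 liver libraries were made. Liver pieces were digested with Accutase, strained and slowly frozen before library preparation, in all groups alike. The labels form 4 groups of 7 libraries, high or low fat content with the number 200 or 600. They state neither the meaning of that number nor where the fat was measured, and the tag that holds the groups is named shear force. The labels name no animals, so p-values measure the spread between libraries, which may in part be technical. All libraries of each number share 1 lane tag, so number and lane cannot be told apart.

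Peak lists differed widely in size, from 196 to 17652 peaks in the 200 libraries and from 39 to 6453 in the 600 libraries, and 15 of the 28 held at least 1000. The read depth behind them is unknown. Of 11 matched hepatocyte markers, 7 (63.6%) had an end peak in at least 1 library, beside 47% of all protein-coding genes. HPX (hemopexin) led with 11 libraries, followed by TTR (transthyretin) and FGG (fibrinogen gamma) with 8 each and ALB (albumin) with 7. The asialoglycoprotein receptor gene ASGR1 had no peak, and APOB, CPS1 and HNF4A had peaks inside the gene but none at an end. From 0 to 7 hepatocyte markers were listed per high fat 200 library, 0 to 4 per low fat 200 library and 0 to 5 in either 600 group. None of the 6 fat cell markers had an end peak. ADIPOQ, LEP, PLIN1, FABP4 and CIDEC had no peak at all. Endothelial and stellate markers had end peaks in 0 of 8, cholangiocyte markers in 0 of 5, macrophage markers in 2 of 9 (CD14 in 6 libraries, CSF1R in 1), lymphocyte markers in 2 of 7 and erythroid markers in 1 of 4. The part of these cells in the results below was not tested.

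LEPROT and ADIPOR1 had among the most recurrent gene-end peaks of the series, ADIPOR2 was listed in fewer libraries, and LEPR was in none. LEPROT (chromosome 6, 146974641 to 146987261) and ADIPOR1 (chromosome 10, 24907491 to 24923540) each had a peak in 19 of 28 libraries. Of 19484 protein-coding genes, 53 (0.272%) had an end peak in 19 libraries or more. ADIPOR2 (chromosome 5, 68755789 to 68807247) was listed in 8, a number that 2403 genes (12.3%) reached or passed. LEPROTL1 (chromosome 15, 54916037 to 54929858) was listed once. Over all protein-coding genes 47% had an end peak in at least 1 library. LEPR (chromosome 6, 146802297 to 146896152) had none in its 93856 bp or within 1000 bp of either end, as had 7478 genes (38.4%). This annotation of LEPR lies 78488 bp from LEPROT and so includes neither end of LEPROT. A promoter at an end of LEPROT, shared by both genes as in humans, would lie outside LEPR as annotated. Where such a promoter lies in the pig was not tested. The absence of a peak therefore holds for LEPR as annotated.

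**Figure D1:**
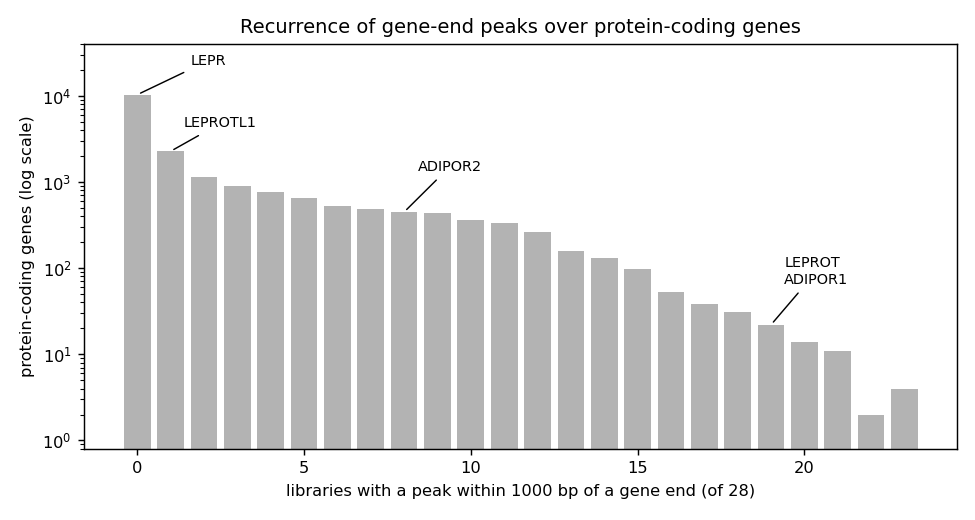
Protein-coding genes (vertical axis, number, log scale) by the number of libraries, of 28, with a peak within 1000 bp of a gene end (horizontal axis). Lines mark LEPR at 0, LEPROTL1 at 1, ADIPOR2 at 8 and LEPROT and ADIPOR1 at 19 libraries, far into the tail of the bars.

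Each of these genes was listed at 1 of its 2 ends, and at the same position in the libraries that listed it. The RefSeq table used here gives no strand, so ends are named by coordinate and start and end of transcription are not distinguished. Exons and introns were not used here. The LEPROT peaks formed 1 region at the higher-coordinate end, from 146986544 to 146988122, and 439 bp were common to all 19 peaks. Their summits, the points of highest signal, lay outside the gene in all 19 libraries, at a median of 172 bp from its end and between 64 and 321 bp. The ADIPOR1 peaks formed 1 region from 24923047 to 24924487, again at the higher end, with 417 bp common to all. All 19 summits lay outside the gene, at a median of 139 bp (63 to 233 bp). At ADIPOR2 the region lay at the lower end, from 68755293 to 68756166, with 94 bp common to all 8 peaks. Its summits straddled the end, 5 outside and 3 inside, from 115 to −229 bp, negative values lying inside the gene. The single LEPROTL1 peak, from 54929404 to 54929912 in high fat 200 replicate 1, had its summit inside the gene, −193 bp from the higher end.

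**Figure D2:**
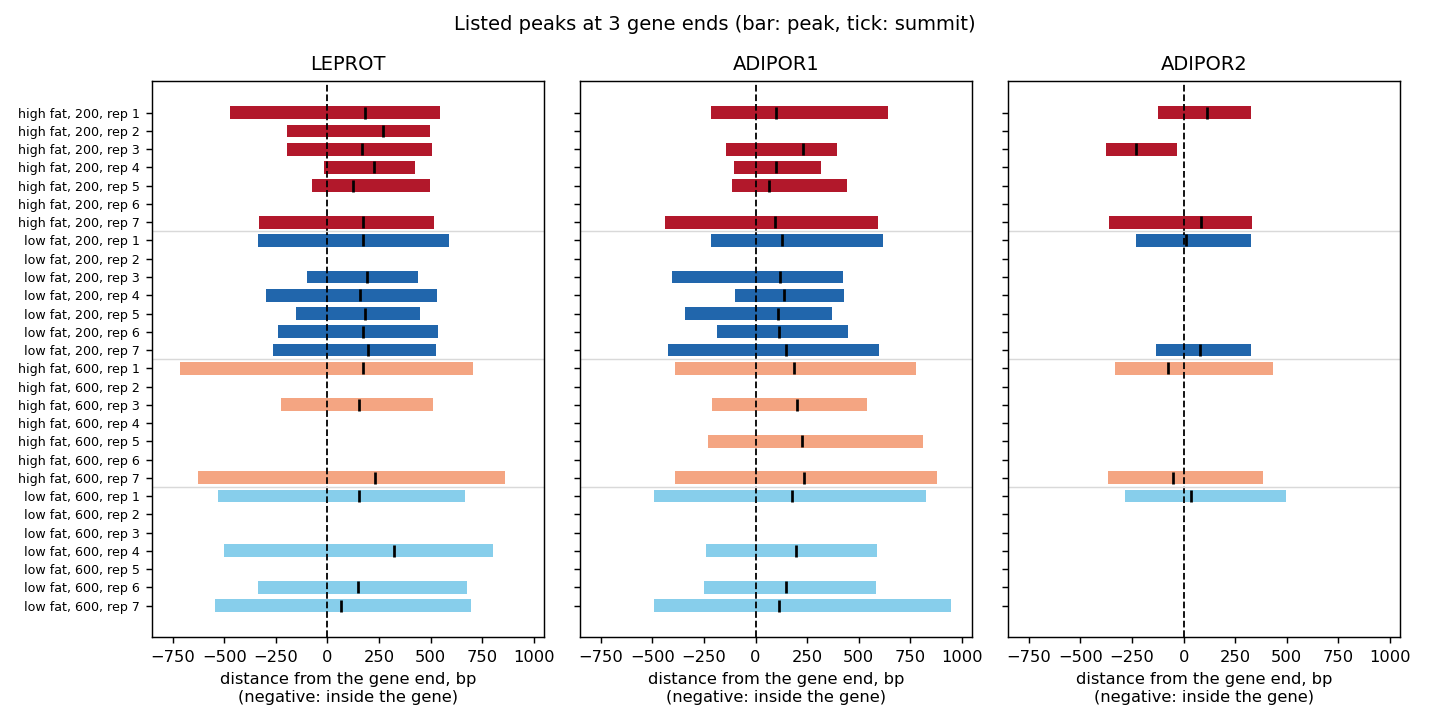
Position of each listed peak relative to the gene end (horizontal axis, bp, dashed line at the end, negative values inside the gene) for LEPROT, ADIPOR1 and ADIPOR2, with 1 row per library. Bars are peaks, ticks their summits and colours the 4 groups; all LEPROT and ADIPOR1 ticks lie to the right of the dashed line, and empty rows are libraries that did not list the locus.

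Listed peaks in the stretch between LEPR and LEPROT fell in 2 regions. In this annotation LEPROT begins 78488 bp beyond the higher end of LEPR. The peak nearest to LEPR lay outside the rule, in a region from 146901247 to 146902574 on chromosome 6 whose closest centre was 5436 bp beyond the higher end of the gene. Its 10 libraries were 3 of high fat 200, 2 of low fat 200, 2 of high fat 600 and 3 of low fat 600, with a deposited −log10 p of 3.37 to 5.42. High fat 200 replicate 1 listed it as 2 peaks. Between that region and LEPROT only the stretch from 146943164 to 146944408 was listed, in 2 libraries. On the other side of LEPROT, 2853 bp away, neither end of DNAJC6, which encodes the co-chaperone auxilin, had a peak, and neither did the ends of PDE4B, a phosphodiesterase gene beyond LEPR.

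The nearest peaks outside the rule lay at the ends of neighbours for LEPROTL1 and ADIPOR1, but not for ADIPOR2. Beyond LEPROTL1, a region from 54933704 to 54934844 with its closest centre 4102 bp away was listed in 7 libraries and lay at the end of SARAF, a regulator of store-operated calcium entry. DCTN6, a dynactin subunit gene, had an end peak in 6 libraries, and MBOAT4, the ghrelin acyltransferase gene between them, in none. With a window of 5000 bp the SARAF region would raise the count of LEPROTL1 from 1 to 7 libraries. ADIPOR1 stands 2626 bp from CYB5R1, a cytochrome b5 reductase gene that had an end peak in 1 library. Farther away RABIF, a RAB-interacting factor gene, had one in 6 libraries and KLHL12, KDM5B, LOC102163530 and LOC102162336 had none. Between KDM5B and ADIPOR1 a region from 24833319 to 24834757, on average 2495 bp from KDM5B, was listed in 8 libraries. On the other side a region from 24952727 to 24956645 near LOC102162336 was listed in 6. The region nearest to ADIPOR2, from 68811177 to 68811697 and 4190 bp beyond its higher end, was listed in 1 library. It lay inside CACNA2D4, a gene that overlaps the higher end of ADIPOR2. A region 10126 bp below ADIPOR2, from 68745078 to 68746133, was listed in 5 libraries. Of the genes around it, FBXL14 had an end peak in 4 libraries, WNT5B in 1 and CACNA2D4 and LRTM2 in none.

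Listing followed the size of the peak list closely. All 9 of the 200 libraries and all 6 of the 600 libraries with at least 1000 peaks listed both LEPROT and ADIPOR1. Over protein-coding genes, 55 (0.282%) had an end peak in every one of these 15 libraries. In the 200 set LEPROT was listed by the 12 libraries with 320 peaks or more and missed by those with 205 and 196. In the 600 set it was listed by the 7 libraries with more than 190 peaks and missed by the other 7. Such an ordering was common among regions listed in as many libraries as LEPROT. Of the 37 regions listed in exactly 12 of the 200 libraries, 19 (51.4%) were listed in the 12 with the most peaks, as were 63 (44.4%) of the 142 regions listed in exactly 7 of the 600 libraries, with the 7 largest lists.

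ADIPOR1 differed from LEPROT in 2 libraries. High fat 200 replicate 2, with 320 peaks, listed LEPROT and not ADIPOR1, whereas high fat 600 replicate 5, with 142 peaks, listed ADIPOR1 and not LEPROT. The other 18 libraries of each gene were shared, 94.7% of either list. ADIPOR2 was listed only where both of the others were, in 5 of the 200 libraries, each with at least 6288 peaks, and in 3 of the 600 libraries. Those 5 were the largest lists of the 200 set. Of the 1382 regions listed in exactly 5 of the 200 libraries, 84 (6.08%) had this ordering. In the 600 set the library with 3775 peaks, low fat replicate 7, missed ADIPOR2 while low fat replicate 1 with 3332 listed it. The library that listed LEPROTL1 was the one with the most peaks, 17652. How far an unlisted site was closed or only thinly sequenced was not tested, and fewer cells with an open site and less opening per cell cannot be told apart in bulk tissue.

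**Figure D3:**
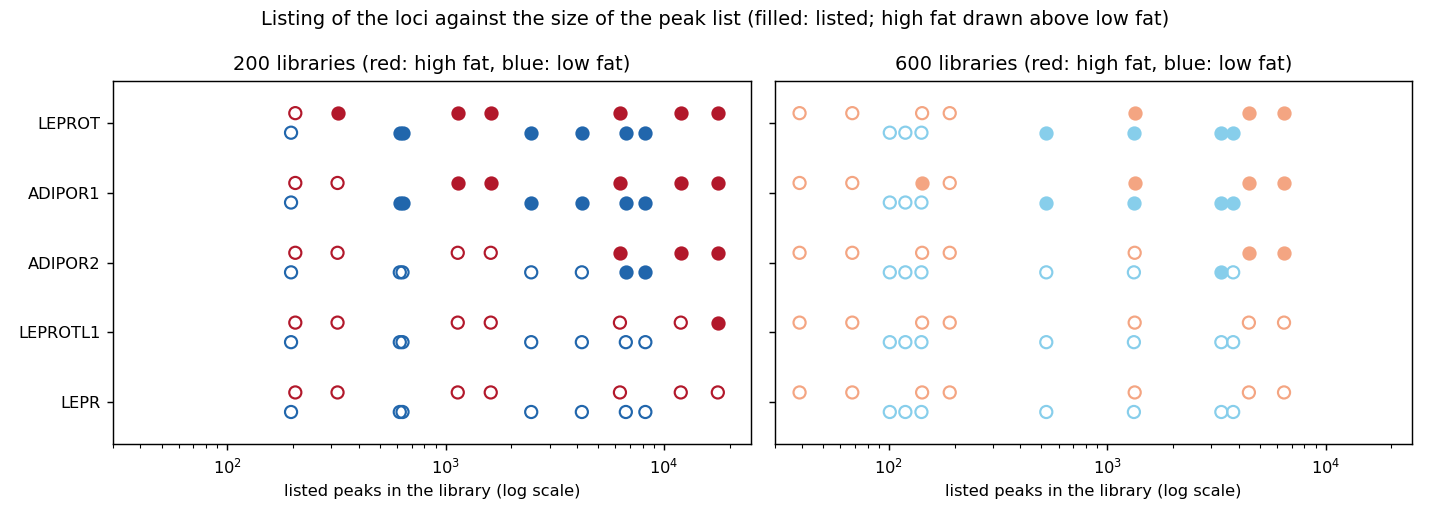
Number of listed peaks per library (horizontal axis, log scale) for the 5 genes, with the 200 libraries on the left and the 600 libraries on the right. Each circle is a library, filled where it listed the gene and open where it did not; for LEPROT every filled circle lies to the right of every open one in both panels.

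High and low fat libraries, the comparison the series title names, listed these genes in similar numbers. Since listing and −log10 p by fat group and by the numbers 200 and 600 served to choose the genes, the members' values in these comparisons are given without a test. In the 200 libraries LEPROT was listed in 6 of 7 high fat and 6 of 7 low fat libraries, missing only from high fat replicate 6 and low fat replicate 2. ADIPOR1 was listed in 5 of 7 high fat and 6 of 7 low fat libraries, a difference of −14.3 percentage points, which lay between −28.6 and −2.38 when each library was left out in turn. ADIPOR2 was listed in 3 and 2, a difference of 14.3 points (4.76 to 26.2 with each library left out), and LEPROTL1 in 1 and 0. The LEPROT difference of 0 points moved between −14.3 and 14.3 in the same way. Over all 7465 regions listed in at least 3 of these libraries, 0% passed Fisher's exact test (two-sided) at a Benjamini-Hochberg adjusted p of 0.05 and 0.0134% (1 region) at an unadjusted p of 0.05. At 7 against 7 libraries the smallest p that this test can give is 0.000583, so a single region could not pass the adjustment.

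In the 600 libraries the numbers were lower. LEPROT was listed in 3 of 7 high fat and 4 of 7 low fat libraries, ADIPOR1 in 4 and 4, and ADIPOR2 in 2 and 1. The differences were −14.3, 0 and 14.3 percentage points. With each library left out in turn they lay between −23.8 and −7.14, between −9.52 and 9.52, and, for ADIPOR2, where 11 of the 14 runs left it in 3 libraries, between 11.9 and 19.05 points. Of 3404 regions 0% passed Fisher's exact test at the adjusted and 0% at the unadjusted threshold, and here too a single region could not pass. Over both sets LEPROT was listed in 9 high fat and 10 low fat libraries, and ADIPOR1 likewise in 9 and 10.

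The strength of the LEPROT peak overlapped between the fat groups. Strength is given here by the deposited −log10 p of the peak, its highest value within the peak. For LEPROT in high fat 200 replicates 1, 2, 3, 4, 5 and 7 it was 11.5, 5.16, 5.07, 5.51, 5.01 and 8.97. In low fat 200 replicates 1, 3, 4, 5, 6 and 7 it was 9.48, 5.09, 6.02, 4.86, 7.45 and 10.8. High values occurred in both groups, in the libraries with many peaks. All 5 values of 7.45 or more came from lists of at least 4208 peaks, although high fat replicate 3, with 6288 peaks, had only 5.07. In the 600 libraries the values were 7.60, 3.47 and 6.79 for high fat replicates 1, 3 and 7, and 5.76, 4.62, 4.80 and 7.17 for low fat replicates 1, 4, 6 and 7. High fat replicate 3 was the lowest of these 7 and high fat replicate 1 the highest.

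ADIPOR1 showed the same overlap at a lower level. Its −log10 p in high fat 200 replicates 1, 3, 4, 5 and 7 was 8.55, 4.15, 4.54, 3.93 and 8.18. In low fat 200 replicates 1, 3, 4, 5, 6 and 7 it was 8.60, 4.09, 5.79, 4.01, 6.73 and 8.27. The 600 values were 6.16, 3.17, 3.40 and 6.30 for high fat replicates 1, 3, 5 and 7 and 5.88, 3.41, 3.47 and 5.68 for low fat replicates 1, 4, 6 and 7. In each 600 group a pair of libraries thus had 5.68 or more and the other pair 3.47 or less. In 17 of the 18 libraries that listed both genes the LEPROT value was above that of ADIPOR1, low fat 600 replicate 1 being the exception.

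Peaks at ADIPOR2 were weaker. Their −log10 p was 6.09, 3.74 and 6.07 in high fat 200 replicates 1, 3 and 7 and 5.22 and 4.44 in low fat 200 replicates 1 and 7. It was 3.41 and 3.48 in high fat 600 replicates 1 and 7 and 3.37 in low fat 600 replicate 1. In all 8 libraries both LEPROT and ADIPOR1 exceeded it, and the deposited signal, the area of the peak, was 1.97 to 6.72 times larger at LEPROT and 1.94 to 4.56 times larger at ADIPOR1. The LEPROTL1 peak had a −log10 p of 4.32, the median value of its library.

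**Figure D4:**
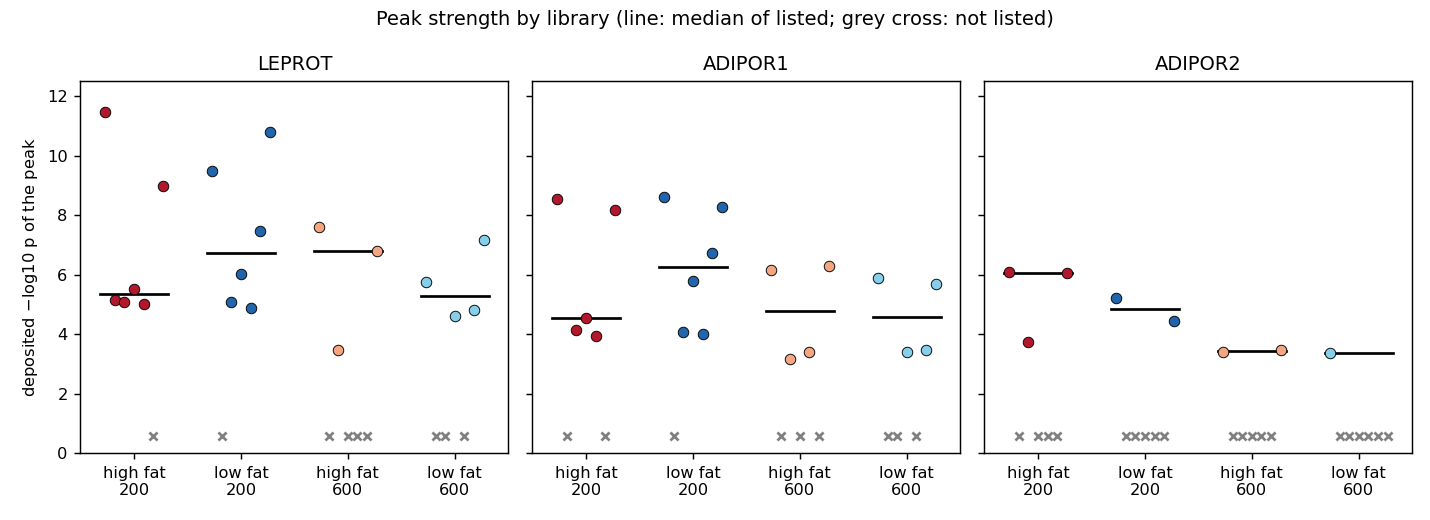
Deposited −log10 p of the peak at LEPROT, ADIPOR1 and ADIPOR2 (vertical axis) in the 4 groups, with 1 point per listing library, a line at the median and grey crosses for libraries that did not list the locus. High and low fat points overlap at LEPROT and ADIPOR1, from 5.01 to 11.5 and from 4.86 to 10.8 for LEPROT in the 200 libraries.

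Since the deposited values carry the unknown depth of each library, strength was also ranked within libraries. The rank is the percentile of a peak by −log10 p among all peaks of its library. This percentile still carries the length of the list. In high fat 200 replicate 2 the LEPROT peak was 97th of 320 (percentile 69.8), and in replicate 3 it was 138th of 6288 (97.4). LEPROT was in the top decile in 14 of its 19 libraries and in the top percent in 6, and it was the 10th strongest of 17652 peaks in high fat 200 replicate 1. ADIPOR1 reached the top decile in 10 of 19 and the top percent in 1, and ADIPOR2 in none. In the 200 libraries the mean rank of LEPROT was 92.0 ± 11.5 (SD, n = 6) in high and 94.5 ± 6.86 (n = 6) in low fat, a difference of −2.59 percentile points. For ADIPOR1 it was 80.8 ± 20.7 (n = 5) and 83.6 ± 22.2 (n = 6), a difference of −2.80. Both differences were smaller than the SD of either group. Over 1351 regions 0% passed an exact permutation test of this rank at the adjusted and 0.814% (11 regions) at the unadjusted threshold. With at most 7 libraries per group a single region could not pass this adjustment either. The direction rested on single libraries. Without high fat replicate 2 the LEPROT difference was 1.83, and the ADIPOR1 difference was 4.91 without high fat replicate 5 and 0.399, 0.0975 and 0.0844 without low fat replicates 1, 6 and 7.

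Between the 600 and the 200 libraries the loci differed most visibly in peak width, as did most regions of the series. LEPROT was listed in 12 of 14 of the 200 libraries and 7 of 14 of the 600 libraries, a difference of −35.7 percentage points. ADIPOR1 was listed in 11 and 8 (−21.4 points) and ADIPOR2 in 5 and 3 (−14.3 points). With only the peaks at or above their library's median −log10 p the differences were −35.7, −42.9 and −28.6 points. Among libraries with at least 1000 peaks they were 0 points for LEPROT and for ADIPOR1 and −5.56 points for ADIPOR2. Of 8592 regions 0.489% passed Fisher's exact test at the adjusted and 4.5% at the unadjusted threshold, with same-numbered libraries treated as independent.

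The LEPROT peak was 728 ± 170 bp wide (SD, n = 12) in the 200 libraries, from 439 to 1016 bp, and 1202 ± 257 bp (n = 7) in the 600 libraries, from 737 to 1491 bp. That of ADIPOR1 was 725 ± 207 bp (n = 11), from 425 to 1035 bp, and 1083 ± 257 bp (n = 8), from 751 to 1441 bp. The ranges overlapped at both genes, and the means differed by 474 bp at LEPROT and by 358 bp at ADIPOR1. Over the 1116 regions listed in at least 5 libraries of each number the median difference was 445 bp, and 73.5% passed an exact permutation test at the adjusted and 76.7% at the unadjusted threshold. With same-numbered libraries as blocks 13 regions passed in place of 820. Median peak widths of whole libraries did not overlap, at 442 to 577 bp in the 200 and 832 to 1124 bp in the 600 set. Against the median of their own library the peaks were wider in 15 of 19 libraries at LEPROT, 15 of 19 at ADIPOR1 and 2 of 8 at ADIPOR2.

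**Figure D5:**
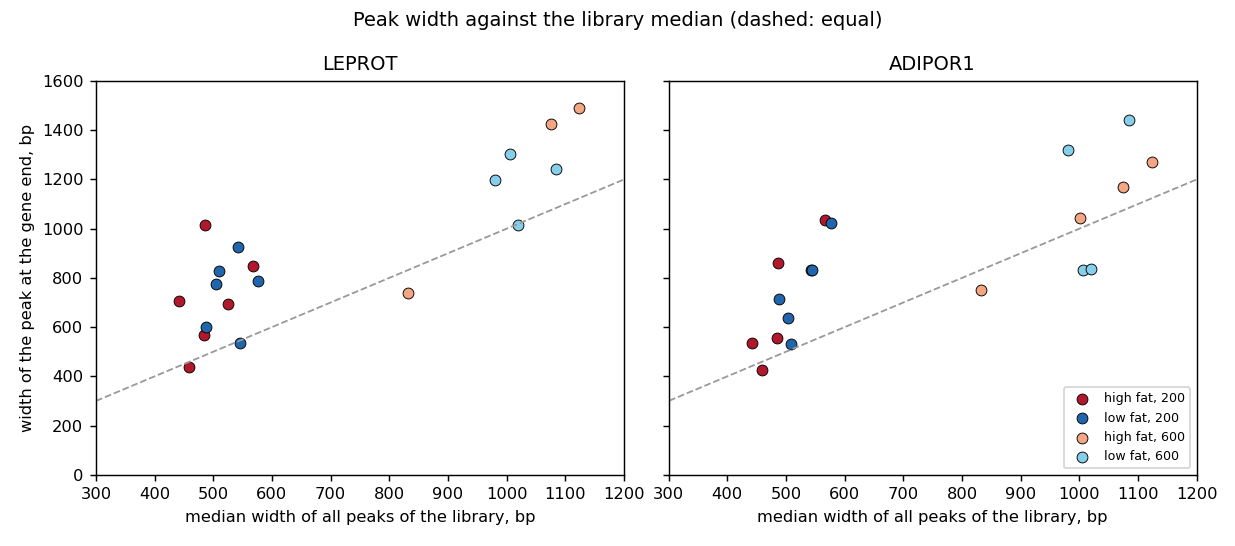
Width of the peak at LEPROT and ADIPOR1 (vertical axis, bp) against the median width of all peaks of the same library (horizontal axis, bp), with 1 point per listing library and a dashed line of equality. The 600 libraries lie to the right at 832 to 1124 bp, and 15 of 19 points of either gene lie above the line.

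The mean −log10 p of both peaks was lower in the 600 libraries, with overlapping ranges. At LEPROT it was 7.07 ± 2.46 (n = 12) in the 200 and 5.74 ± 1.52 (n = 7) in the 600 libraries, a difference of −1.33. At ADIPOR1 it was 6.08 ± 2.03 (n = 11) and 4.68 ± 1.43 (n = 8), a difference of −1.39. The median difference over the 1116 regions was −1.07, and 1.79% of them passed an exact permutation test at the adjusted and 25.9% at the unadjusted threshold. The rank within the library differed by −0.902 percentile points at LEPROT and by −20.4 at ADIPOR1. Of the regions 0.896% passed for rank at the adjusted and 11.8% at the unadjusted threshold. The ADIPOR1 ranks spread widely in the 600 set, from 25.5 to 97.5.

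Among the other genes of the pathways, several intracellular partners of both receptors had recurrent end peaks, whereas the hormone genes had none. LEP and ADIPOQ had no peak. Of the 2 further matched ligand-side genes, CDH13 (T-cadherin, which binds adiponectin) and C1QTNF12 had an end peak in 1 library each. Leptin receptor signalling genes had end peaks in 10 of 15, with a median of 2 libraries. JAK2, the kinase bound to the leptin receptor, led with 13 libraries, followed by PIK3R1, a regulatory subunit of PI3-kinase, with 11, STAT3 with 8 and IRS2 and FOXO1 with 6 each. SOCS3, the feedback inhibitor of this receptor, had an end peak in 1 library. STAT5B, PTPN1, GRB2 and PIK3CA had no peak.

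Adiponectin receptor and AMPK genes had end peaks in 12 of 20, with a median of 1 library. APPL1, the adaptor that binds the adiponectin receptors, was listed in 11 libraries and its paralog APPL2 in 9. ASAH1, an acid ceramidase gene, followed with 7, and STK11, the kinase upstream of AMPK, and the AMPK subunit gene PRKAB2 with 6 each. CAMKK2, PRKAA2, PRKAG3, PPARA, ACACB and ASAH2 had no peak. Of the 9 other PAQR family genes 3 had an end peak, PAQR3 in 6 libraries and PAQR9 and MMD in 5 each, and PAQR4, PAQR6, PAQR7 and PAQR8 had none anywhere. ADIPOR1, with 19 libraries, was chosen with its listing known, so its place above these genes is no result. Only 0.272% of all protein-coding genes reached that number. Class I cytokine receptor genes, the family of LEPR, had end peaks in 5 of 11. IL6ST, the shared gp130 subunit, had one in 11 libraries and GHR, IL6R, OSMR and IL4R in 2 each, while PRLR, EPOR and IL7R had no peak. The median over the PAQR genes and over the cytokine receptor genes was 0 libraries, as over all protein-coding genes. The shares with an end peak, 66.7% for leptin receptor signalling, 60% for adiponectin receptor and AMPK genes, 33.3% for PAQR genes and 45.5% for cytokine receptors, stand beside 47% of all protein-coding genes.

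Genes with the listing most like that of these loci were found by the Jaccard index over the 28 libraries, the number that list both genes divided by the number that list either. Ties were ordered by the smaller mean difference of strength rank, and at most 5 genes are named. For LEPROT these were CCDC82 with 1, PAM, a peptide-amidating enzyme gene, with 0.950, and EDEM3, TAP1 and PSMB9 with 0.947 each, among 10 genes that reached 0.947. TAP1 and PSMB9 are neighbours that share 1 peak. ADIPOR1 was most like ZSWIM6 with 1, GPBP1 and the protein disulfide isomerase gene PDIA4 with 0.950, and DNAJC3 with 0.947, among 11 genes that reached that value. ADIPOR2 was most like PPP1R11 and EIF2D with 1 each and ATAD2B, MYLK4 and WRNIP1 with 0.889 each, among 20 genes that reached 0.889. MYLK4 and WRNIP1 are neighbours that share a peak. Such likeness is a description over libraries whose peak numbers all genes share.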

How the data were processed

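Liver ATAC-seq peak lists of 28 libraries were used. Genrich, Picard, SAMtools, BWA and FastQC are listed, with the build Sscrofa11.1, in the submitters' processing notes, and neither versions nor filters are given in the sources used here. Per the file headers, the deposited table gives positions, a score (not used), a signal value (peak area) and a p-value column. That deposited column reached 7880.9 and is thus −log10 p. Depth is unknown, so no count-based interval or floor is given. Starts were counted from 0 and are printed from 1.

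Peaks overlapping by at least 1 bp were chained into regions. Over all regions, listing was compared by Fisher's exact test over regions in at least 3 libraries, ranks and widths by exact permutation of means (100000 resamples above 100000 divisions), all two-sided with Benjamini-Hochberg adjustment over all regions and a threshold of 0.05. The comparisons of width, −log10 p and rank between 600 and 200 libraries were added after the data were seen. Functions were tested on simulated data. Members carry no test, since these comparisons served to choose them. Members and lists were chosen with earlier results of these data known. Named were the members, per list the 4 leading genes (with ties) and those without any peak up to 6, neighbours within 100000 bp, the 5 genes most alike in listing (1 of them is not reported here), and, chosen after their values were seen, SOCS3, ACACA, IRS1, PPARGC1A and GHR inside the gene, and the leading cell markers. The hepatocyte markers without an end peak were also named after their values were seen. List genes C1QTNF9, LIFR and TF had no match. The RefSeq table holds no sequences, so none are shown. Same-numbered libraries were not taken as pairs in the main comparisons, which treat them as independent. The block by title number was an alternative. Software was scipy 1.17.1, pandas 2.3.3 and numpy 2.4.6 under Python 3.11.15, with figures drawn by matplotlib 3.10.9.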

Additional observations from a re-analysis of the deposited data

Results flagged for a closer look

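In 2 of 28 combinations of gene, group and measure a single library stood apart from the others of its group by Dixon's criterion, which chance meets in about 1 of 20 groups. The strength rank of the LEPROT peak in high fat 200 replicate 2 was 69.8, against 89.8 to 99.9 in the other 5 listing libraries. That library held 320 peaks, the fewest of those that listed LEPROT. The peak was the 97th strongest there, a place that gives a higher percentile in a longer list. The ADIPOR1 summit in high fat 200 replicate 3 lay 232 bp beyond the gene end, against 63 to 99 bp in the other 4 listing libraries of the group. Low fat 200 libraries had this summit at 111 to 148 bp and high fat 600 libraries at 188 to 233 bp. The value thus stood apart within the 200 libraries but not at the locus as a whole.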

How the results depend on the processing

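Of 388 recomputed values, 369 were labelled as kept, which does not mean that they were equal. Counts of regions had to stay within a fixed factor of the main count, and listings of the loci within a binomial interval. Differences at the loci had to keep their direction and their side of the threshold, which is a label here and no test. A difference of 0 could not turn. No region passed for fat, in listing or rank, under any alternative run, but 7 or fewer libraries per group limit how small these p-values can be. The number of regions differing in listing between 600 and 200 libraries fell from 42 to 0 with libraries of at least 1000 peaks and to 0 with the replicate block. Fewer libraries or pairs limit how small p can be in both, so this fall does not show that the difference is absent. With libraries of at least 1000 peaks the regions differing in −log10 p fell from 20 to 7 and those differing in rank from 10 to 0. Replicate numbers did not establish pairs: deviations of same-numbered 600 and 200 libraries correlated at 0.0354 to 0.626, over 0.1 in 9 of 14, and 6 of 14 correlated best with their own number. For fat, high and low fat libraries were matched by replicate number, which only counts libraries within a group, so these pairs are arbitrary. Of them 2 of 7 were over 0.1 in the 200 and 6 of 7 in the 600 set. With the replicate block 13 regions differed in width (820 without), 8 in −log10 p (20) and 6 in rank (10), and the width differences were 359.9 bp at LEPROT and 332 bp at ADIPOR1 (474 and 358 bp without), from 7 and 8 pairs, which limits how small a sign-flip p can be. Where both libraries of a title number listed the gene, −log10 p was lower in the 600 library in 7 of 7 at LEPROT, 8 of 8 at ADIPOR1 and 3 of 3 at ADIPOR2. This was the pattern of the series, as mean −log10 p was lower in the 600 libraries in 1086 of 1116 regions. No title number listed one of these genes in its 600 library only. High minus low fat rank differences turned with the arbitrary fat block at LEPROT (2.73) and ADIPOR1 (0.0975), from which no direction can be read. At ADIPOR1 the difference also turned with peaks at or above the library median (2.58) and ranks by signal (2.27). Leaving out each library gave −4.61 to 1.83 at LEPROT and −8.895 to 4.91 at ADIPOR1. With peaks at or above the library median ADIPOR2 was listed in 4 libraries (8 otherwise) and ADIPOR1 in 16 (19). A window of 5000 bp raised LEPROTL1 from 1 to 7 libraries. Causes were not tested. Without depth, unlisted sites cannot be read as closed.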

Other observations

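Some metabolic genes were listed inside the gene in more libraries than at its ends. ACACA, the acetyl-CoA carboxylase of fatty acid synthesis, had a peak in or near the gene in 10 libraries and at an end in 1. IRS1, an insulin receptor substrate, had one in 8 libraries and at an end in 1. PPARGC1A, a coactivator of oxidative metabolism, was listed in 8 libraries with none at an end, and GHR, the growth hormone receptor and a relative of LEPR, in 6 with 2 at an end. LEPROT, ADIPOR1 and ADIPOR2 had all of their peaks at an end.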
